A study of Mus musculus with 8 samples.

Results

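Transcripts of 9 enzymes of the Golgi that sulfate or sialylate glycans, or branch them, were followed in naive CD8+ T cells from mice labelled Furin KO, for the gene of the protease FURIN, and mice labelled WT. The enzymes were Chst11, Chst12, Chst15, St3gal1, St3gal6, St6gal1, St8sia1, St8sia4 and Gcnt1, which are 9 of the 55573 genes in the count table. They were picked by name from earlier results of the same libraries, in which Chst11 differed between the genotypes. Their genotype differences are therefore given as a description. The calls that the fits over all genes made among them are counted, and nothing is read from them. 8 of the 9 had counts and passed the filter on low counts, and Gcnt1 had no count in any library.

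RNA was sequenced from resting cytotoxic lymphocytes that had not yet met their antigen. They were taken from spleen and lymph nodes of male C57BL/6 mice, enriched for CD8a and sorted by flow cytometry. The groups were 5 libraries labelled Furin KO (replicate 1 from mice of 7 weeks, replicates 2 to 5 from 8 weeks) and 3 labelled WT (replicate 1 from 7 weeks, replicates 2 and 3 from 8 weeks). Total counts were 11308220 to 21040431 in Furin KO libraries and 14463450 to 19159021 in WT libraries. The labels state neither the allele nor what drives its deletion. They also do not say whether the libraries are from separate mice, so the replicate spread behind each p-value may be only technical.

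Sulfotransferases of the CHST family take sulfate from the donor PAPS and place it on the sugars of chondroitin sulfate, a long acidic chain carried by proteoglycans such as serglycin. Sialyltransferases end glycan branches with sialic acid, a negatively charged sugar that masks the galactose beneath it and forms ligands for siglecs. In T cells, sialylation of O-glycans on CD8, CD43 and CD45 is high in the resting state and is remodelled on activation, when core 2 branching increases. FURIN cleaves precursor proteins in the same late Golgi compartments where these enzymes work.

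Promoter windows from RefSeq (GRCm38.p6) are shown for 3 members, the one whose groups separated, its closest relative in function, and the one without counts. Each window holds 300 bases, 250 before and 50 after an annotated start, 5′ to 3′ on the strand of the gene. Capitals mark the GC box GGGCGG read on either strand. The Chst11 window is chr10:82985247-82985546 (plus strand), that of Chst12 is chr5:140505359-140505658 (plus strand), and that of Gcnt1, the most upstream of 3, is chr19:17372795-17373094 (minus strand).
Chst11: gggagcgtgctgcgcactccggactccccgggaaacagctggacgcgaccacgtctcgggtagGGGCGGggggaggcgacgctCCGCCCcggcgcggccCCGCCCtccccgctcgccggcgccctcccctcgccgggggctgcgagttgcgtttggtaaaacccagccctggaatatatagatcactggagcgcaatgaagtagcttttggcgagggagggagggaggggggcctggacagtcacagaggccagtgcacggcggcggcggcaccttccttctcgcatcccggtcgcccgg
Chst12: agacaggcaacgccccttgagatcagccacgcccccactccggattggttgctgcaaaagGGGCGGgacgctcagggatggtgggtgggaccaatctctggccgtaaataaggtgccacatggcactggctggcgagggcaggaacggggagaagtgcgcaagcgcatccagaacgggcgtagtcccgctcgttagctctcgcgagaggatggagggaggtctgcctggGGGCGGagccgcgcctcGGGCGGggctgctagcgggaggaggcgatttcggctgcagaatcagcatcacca
Gcnt1: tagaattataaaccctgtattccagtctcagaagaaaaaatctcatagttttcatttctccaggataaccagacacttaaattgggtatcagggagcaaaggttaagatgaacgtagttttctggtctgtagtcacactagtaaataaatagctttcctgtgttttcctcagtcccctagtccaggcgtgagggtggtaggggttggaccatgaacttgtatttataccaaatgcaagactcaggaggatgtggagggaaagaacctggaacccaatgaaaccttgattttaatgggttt
The Chst11 window had a GC content of 71.0% and 34 CpG pairs, a number reached by 7.7% of the 32851 windows in the table. The Chst12 window had 65.0% and 24 CpG pairs, and the Gcnt1 window 40.7% and 2, against medians of 52.7% and 7 over all windows. The GC box occurred 3 times in each of the Chst11 and Chst12 windows and was not found in the Gcnt1 window, and 35.7% of all windows held it at least once. The letters TATAAA, on either strand, occurred 2 times in the Gcnt1 window and in 13.6% of all windows. The other Gcnt1 windows differed from the one shown, with 58.7% GC and 16 CpG pairs in one and 52.0% and 3 in the other, and neither held TATAAA or the GC box. 8 of the 9 members were in the table. A match of letters is a description and not a binding site.

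The libraries carried naive CD8+ T cell transcripts. The 9 marker genes of naive CD8+ T cells summed to 10491 to 12034 CPM (the count of a gene as a share of all counts in its library, scaled to a library size common to all) in Furin KO libraries and 10115 to 11707 CPM in WT libraries. The B cell list summed to 660 to 826 CPM in Furin KO and 634 to 853 CPM in WT. Ighm alone gave 631 to 800 CPM of this in Furin KO and 614 to 829 CPM in WT. Cd79b gave 19.5 to 27.2 CPM in Furin KO and 20.1 to 27.8 CPM in WT, while Ms4a1, Fcer2a and Cr2 were at 0 in every library. The 8 myeloid markers summed to at most 1.41 CPM in Furin KO and 2.08 CPM in WT, with 6 of them at 0. 12 genes of antigen-experienced CD8+ T cells, listed after the data were seen, summed to 661 to 697 CPM in Furin KO and 605 to 669 CPM in WT, with Gzmk and Klrg1 at 0. Most of that sum was Il2rb, Ly6c2 and Id2. Tbx21 of the same list had 4.41 to 8.38 CPM in Furin KO and at most 2.88 CPM in WT, without overlap. The groups of the other genes of that list with counts overlapped, and 2.9% of all genes tested had groups without overlap. Of the 10 genes of that list tested, 0 passed an adjusted p of 0.05 in edgeR's test of genotype, as 0.032% of all genes did. NK cell markers, nearly all of it Prf1, summed to 60.9 to 102 CPM in Furin KO and 65.5 to 114 CPM in WT. Those of CD4 T cells summed to 6.04 to 8.12 CPM in Furin KO and 6.8 to 12.5 CPM in WT. Ikzf4 gave 4.41 to 6.89 CPM of this in Furin KO and 4.16 to 8.19 CPM in WT. Cd4 itself had at most 0.352 CPM in Furin KO and 0.892 CPM in WT. Those of dendritic cells summed to 0.527 to 3.20 CPM in Furin KO and 0.206 to 2.02 CPM in WT. The part of these in the results below was not tested. In bulk RNA, fewer cells of a type and less RNA per cell cannot be told apart.

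Furin, the targeted gene, had 63.5, 86.4, 62.2, 58.0 and 76.6 CPM in Furin KO replicates 1 to 5, against 57.0, 66.8 and 66.9 CPM in WT replicates 1 to 3. The groups overlapped, and the level in the libraries labelled Furin KO was no lower than in those labelled WT. A count over the whole gene cannot tell a deleted exon from the remaining ones, so the labels were not checked by it. Each direction below is between libraries as labelled.

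Chst11, which sulfates N-acetylgalactosamine in chondroitin, was the member whose genotype groups stood apart. It had 10.8, 17.3, 10.3, 9.10 and 11.2 CPM in Furin KO replicates 1 to 5, against 5.97, 4.33 and 3.37 CPM in WT replicates 1 to 3. All 5 Furin KO libraries lay above all 3 WT libraries, and Furin KO replicate 2 was the highest of the 8. The counts behind these levels were 223, 362, 192, 191 and 127 in Furin KO and 87, 83 and 60 in WT. The means were 11.7 ± 3.23 CPM (SD, n = 5) in Furin KO and 4.56 ± 1.31 CPM (SD, n = 3) in WT, a ratio of 2.57. The log2 fold change was 1.37 (SE 0.27, 95% interval 0.81 to 1.93). Chst11 (ENSMUSG00000034612) spans chromosome 10, 82985498 to 83195900 on GRCm38, and shares no exon base with an annotated neighbour.

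**Figure D1:**
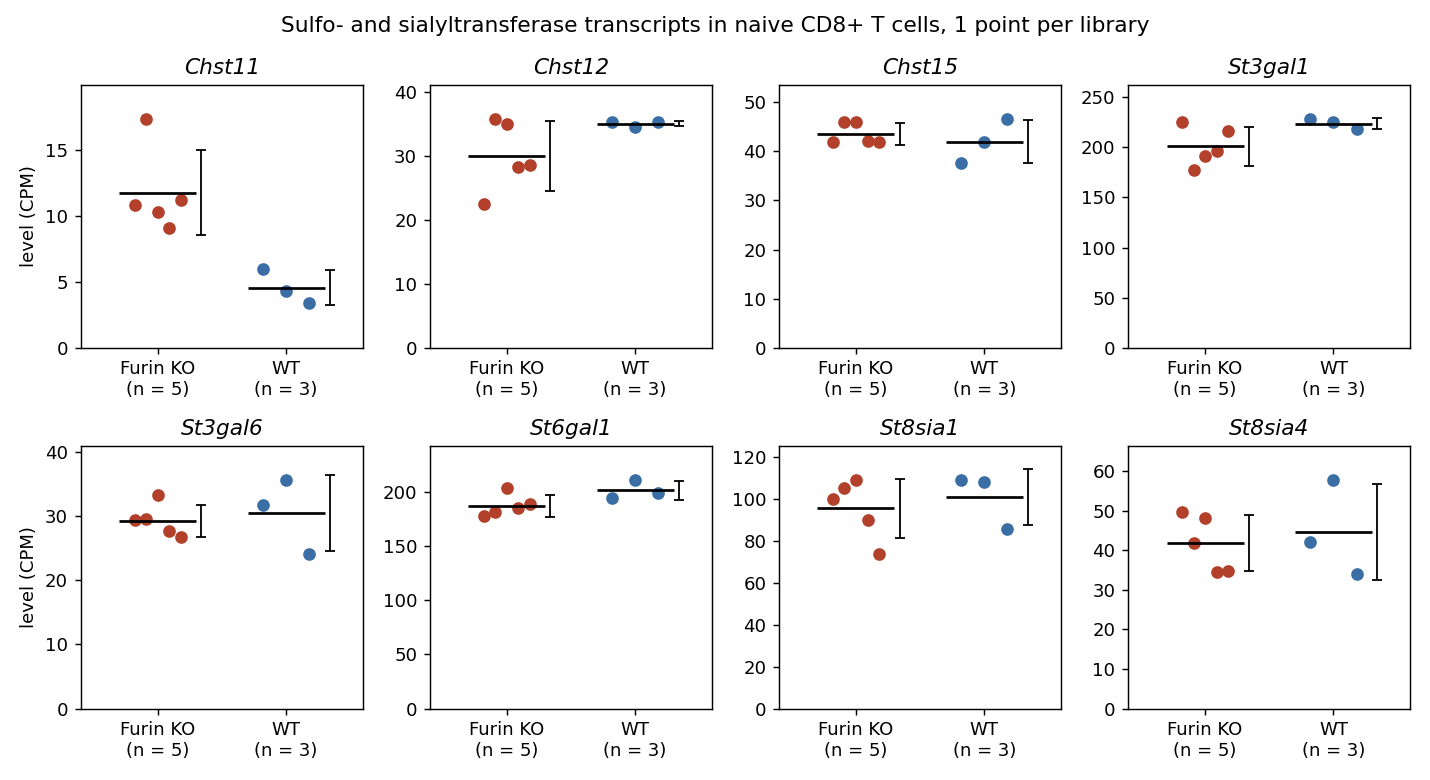
Levels of the 8 members with counts, in CPM, with 1 point per library, Furin KO left (n = 5) and WT right (n = 3); horizontal lines are means and bars 1 SD. Chst11 lies at 9.10 to 17.3 CPM in Furin KO and 3.37 to 5.97 CPM in WT, while the groups of the other 7 members overlap.

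Chst12, which sulfates the same sugar of chondroitin, had 22.5, 35.8, 35, 28.3 and 28.6 CPM in Furin KO replicates 1 to 5, against 35.3, 34.6 and 35.4 CPM in WT replicates 1 to 3. Furin KO replicates 1, 4 and 5 lay below every WT library, and replicates 2 and 3 lay at the WT level. The log2 fold change was -0.22 (95% interval -0.54 to 0.09). Chst12 (ENSMUSG00000036599) spans chromosome 5, 140505550 to 140525724.

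Chst15, which adds a further sulfate to an already sulfated chondroitin unit, had 41.8, 46.0, 46.0, 42.0 and 41.9 CPM in Furin KO replicates 1 to 5, against 37.6, 41.8 and 46.5 CPM in WT replicates 1 to 3. The Furin KO range lay inside that of WT, with a log2 fold change of 0.05 (95% interval -0.19 to 0.30). Chst15 (ENSMUSG00000030930) spans chromosome 7, 132235780 to 132317228. Its exons share 1206 bases with the antisense gene Gm10584, to which 10 counts were assigned over all libraries against 6219 for Chst15.

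Among the sialyltransferases, St3gal1 caps the core of O-glycans. It had 225, 177, 191, 196 and 216 CPM in Furin KO replicates 1 to 5, against 228, 225 and 218 CPM in WT replicates 1 to 3. The lowest level was that of Furin KO replicate 2, 4 of the 5 Furin KO libraries lay below the lowest WT library, and replicate 1 lay within the WT range. The log2 fold change was -0.15 (95% interval -0.35 to 0.05). St3gal1 (ENSMUSG00000013846) spans chromosome 15, 67102875 to 67176830.

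St6gal1, which caps N-glycans and makes the ligand of the B cell lectin CD22, had 178, 181, 204, 185 and 189 CPM in Furin KO replicates 1 to 5, against 194, 211 and 199 CPM in WT replicates 1 to 3. Furin KO replicate 3 lay within the WT range and the other 4 below it. The log2 fold change was -0.10 (95% interval -0.29 to 0.08). St6gal1 (ENSMUSG00000022885) spans chromosome 16, 23224740 to 23360350. Its exons share 200 bases with BC106179 on the opposite strand, which had 1837 counts over all libraries against 27697 for St6gal1.

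St3gal6, which takes part in making selectin ligands, ranged from 26.7 to 33.2 CPM in Furin KO and from 24.0 to 35.6 CPM in WT, so the Furin KO range lay inside that of WT (log2 fold change -0.06, 95% interval -0.36 to 0.25). Its exons share 1603 bases with Dcbld2 on the opposite strand, a gene with 18 counts over all libraries against 4295 for St3gal6. St8sia1, which makes the ganglioside GD3, ranged from 73.9 to 109 CPM in Furin KO and from 85.7 to 109 CPM in WT (log2 fold change -0.07, 95% interval -0.34 to 0.19). St8sia4, one of the enzymes that build polysialic acid, ranged from 34.6 to 49.8 CPM in Furin KO and from 34.1 to 57.8 CPM in WT (log2 fold change -0.09, 95% interval -0.44 to 0.26). For all 3 genes the groups overlapped. St3gal6 (ENSMUSG00000022747) spans chromosome 16, 58468125 to 58524243, St8sia1 (ENSMUSG00000030283) chromosome 6, 142821545 to 142964452, and St8sia4 (ENSMUSG00000040710) chromosome 1, 95587682 to 95667571.

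Gcnt1 (ENSMUSG00000038843, chromosome 19, 17326141 to 17372844), which starts the core 2 branch of O-glycans, had 0 counts in each of the 5 Furin KO and 3 WT libraries. A count of 0 allows up to 3 counts, which corresponds to levels of up to 0.143 to 0.264 CPM in Furin KO libraries and 0.157 to 0.206 CPM in WT libraries, counting error only. The related Gcnt3 also had 0 counts, and Gcnt4 had 60 counts over all libraries. Of the 21980 protein-coding genes in the table, 41.5% had 0 counts in every library.

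0 of the 8 members with counts passed an adjusted p of 0.05 in edgeR's quasi-likelihood test of genotype, where 0.032% of the 12500 genes tested did. DESeq2 called 1 of the 8, Chst11, and so did edgeR without the filter on low counts and edgeR with the set of similar libraries as a factor (below), where 0.12%, 0.19% and 0.096% of all genes were called, and limma-voom called none of the 8 (0.04% of all genes). 1 of the 8 had groups that did not overlap, against 2.9% of all genes. Nothing is read from these counts, since the genotype difference took part in the choice of members. 6 of the 8 fold changes were below 0, and the median log2 fold change was -0.08, beside 0.00 over all genes tested.

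**Figure D2:**
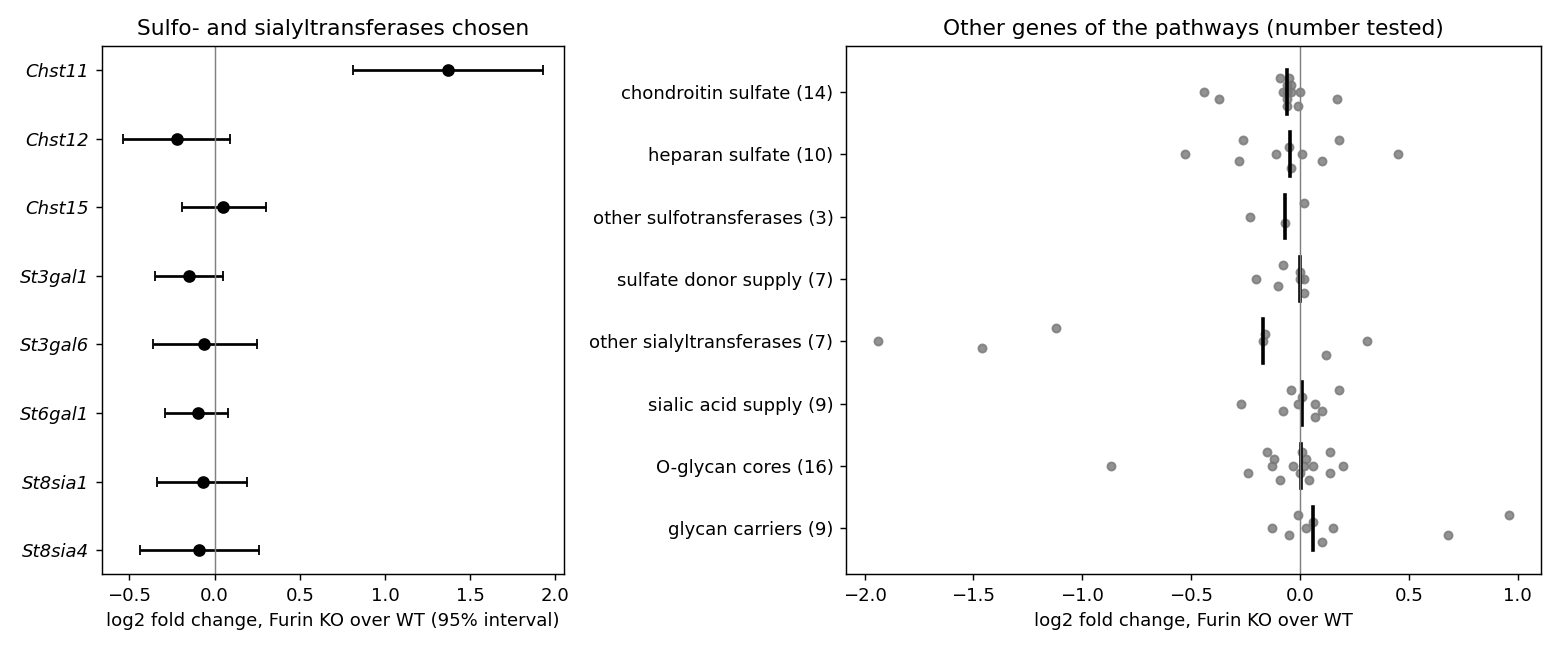
Log2 fold changes, Furin KO over WT, from edgeR. Left, the 8 members with 95% intervals, with Chst11 at 1.37 (0.81 to 1.93) and the other 7 between -0.22 and 0.05; right, each point is 1 tested gene of another list of the same pathways, and black bars are medians, which lie between -0.17 and 0.06.

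Members were compared with each other per kilobase of annotated exon, a scale on which genes of different length can be set side by side. St6gal1 stood highest, at 38.1 ± 2.13 CPM per kb in Furin KO (SD, n = 5) and 40.9 ± 1.82 CPM per kb in WT (SD, n = 3). St3gal1 followed at 29.4 ± 2.85 and 32.6 ± 0.782 CPM per kb in Furin KO and WT. These 2 did not overlap over the 8 libraries, and both lay above all others. Chst12 stood at 12.7 ± 2.31 CPM per kb in Furin KO and 14.9 ± 0.186 in WT, and St8sia1 at 10.2 ± 1.51 in Furin KO and 10.8 ± 1.39 in WT, with overlapping ranges. Chst15 ranged from 5.57 to 6.88 CPM per kb over the 8 libraries and St3gal6 from 3.89 to 5.77, which also overlapped. St8sia4 stood at 2.08 ± 0.357 CPM per kb in Furin KO and 2.22 ± 0.599 in WT, and its range of 1.70 to 2.88 overlapped that of Chst11.

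Chst11 had 2.12 ± 0.584 CPM per kb in Furin KO and 0.825 ± 0.238 CPM per kb in WT. Its Furin KO libraries thus lay at the level of St8sia4 and its WT libraries below every other member with counts. The order of the other 7 was the same in both genotypes by their means. The exon length counts every annotated exon, 20.1 kb for St8sia4 against 5.53 kb for Chst11, so a gene with little-used exons is understated. With both genotypes pooled, the highest level of Chst11 was 5.14 times its lowest, a ratio that includes its genotype gap. The same ratio was 1.69 for St8sia4, 1.59 for Chst12 and 1.19 for St6gal1.

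**Figure D3:**
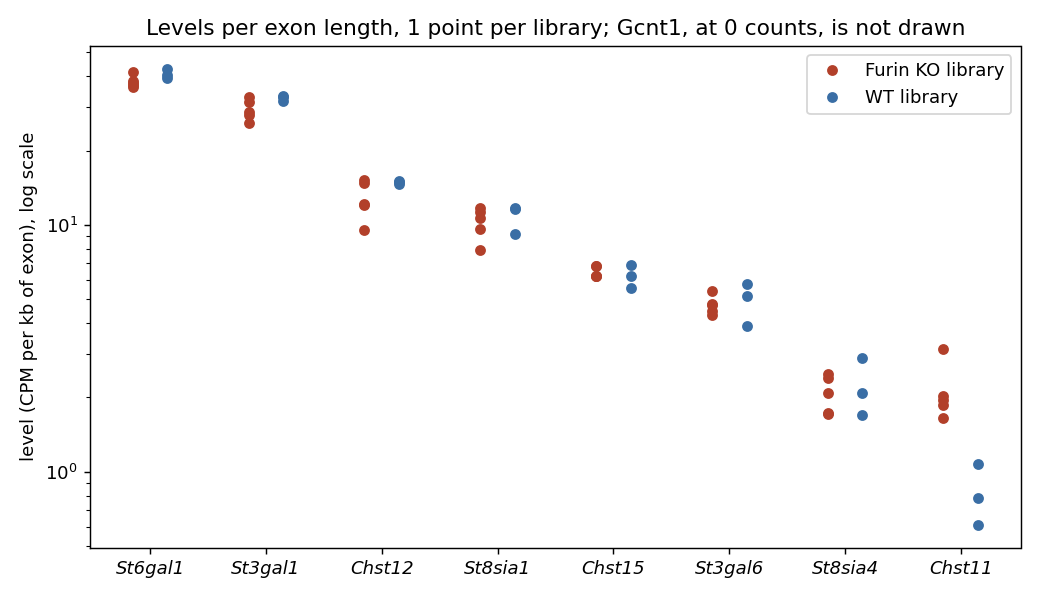
Levels in CPM per kb of annotated exon on a log axis, 1 point per library, Furin KO left of WT for each gene, in order of the WT mean. St6gal1 and St3gal1 lie above all others, and Chst11 lies lowest in WT libraries (0.825 CPM per kb) and beside St8sia4 in Furin KO libraries (2.12 CPM per kb).

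Clustering on pairwise count distances was cut at 3 sets, and each set held both genotypes. The number of sets was a setting and not a result. Set 1 holds Furin KO replicate 1 and WT replicate 1, set 2 Furin KO replicates 2 and 3 with WT replicate 2, and set 3 Furin KO replicates 4 and 5 with WT replicate 3. Set 2 was low in the early response gene Fos, at 85.8 and 204 CPM in Furin KO and 144 CPM in WT, against 801 to 1075 CPM in the other 5 libraries. The sets are also runs of consecutive samples in the series' order, and set 1 holds the libraries of 7 weeks. No label names a batch, and whether the sets have a technical source was not tested.

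Within each set Chst11 was higher in Furin KO than in WT. This follows from its separated groups, since any set with both genotypes would show it, so only the sizes are described. It averaged 10.8 CPM in Furin KO and 5.97 CPM in WT in set 1 (n = 1 and 1), 13.8 and 4.33 CPM in set 2 (n = 2 and 1), and 10.1 and 3.37 CPM in set 3 (n = 2 and 1). The ratios of Furin KO to WT were 1.81, 3.19 and 3.00. Chst12 averaged 22.5 CPM in Furin KO and 35.3 CPM in WT in set 1, 35.4 and 34.6 CPM in set 2, and 28.5 and 35.4 CPM in set 3. Its level was thus lower in Furin KO in sets 1 and 3 and nearly equal in set 2. St6gal1 was lower in Furin KO in all 3 sets, by a log2 difference of -0.12, -0.13 and -0.09, and so was St3gal1, by -0.02, -0.29 and -0.08. For St8sia1 the Furin KO means were lower, by -0.12, -0.01 and -0.07, but single libraries were not always. Furin KO replicate 3 (109 CPM) lay above WT replicate 2 (108 CPM) in set 2. In set 3, Furin KO replicate 4 (89.8 CPM) lay above WT replicate 3 (85.7 CPM). Chst15, St3gal6 and St8sia4 changed direction between sets.

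3 members were lower in set 3 than in the other sets, in both genotypes. St8sia1 had 73.9 to 89.8 CPM in the 3 libraries of set 3, Furin KO and WT together, and 99.8 to 109 CPM in the other 5. St8sia4 had 34.1 to 34.9 CPM in set 3 and 41.9 to 57.8 CPM in the others. St3gal6 had 24.0 to 27.6 CPM in set 3 and 29.3 to 35.6 CPM in the others. For these 3 of the 8 members set 3 lay below the other 5 libraries, as it did for 3.74% of all genes tested, and 6.61% of all genes did not overlap in either direction. The sets were drawn from the same counts, so these differences are given without a test.

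**Figure D4:**
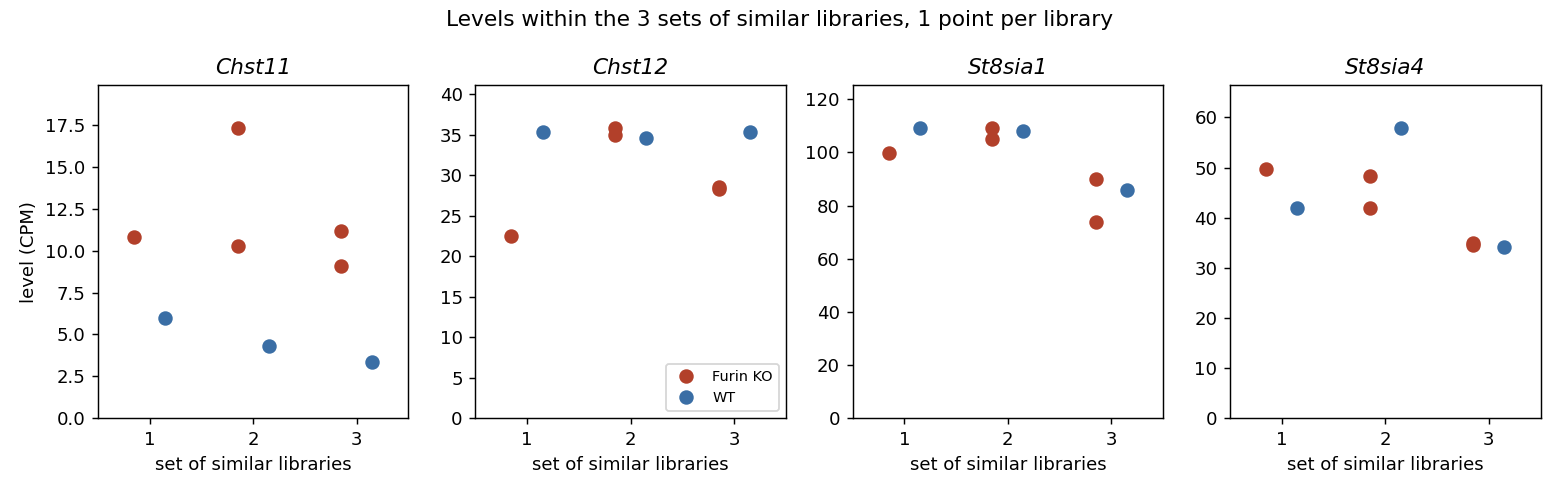
Levels in CPM of 4 members within the 3 sets of similar libraries, 1 point per library, Furin KO left of WT in each set. Chst11 is higher in Furin KO in every set, which follows from its separated groups. St8sia1 (73.9 to 89.8 CPM) and St8sia4 (34.1 to 34.9 CPM) are lowest in set 3 in both genotypes.

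Age took no part in the choice of members and was tested with genotype as a covariate, over 6 libraries of 8 weeks and 2 of 7 weeks. 0 of the 8 members passed an adjusted p of 0.05 in edgeR, where 42 of 12500 genes (0.336%) did, 10 higher and 32 lower at 8 weeks. DESeq2 and limma-voom called 0 of the 8, where 3.06% and 0.912% of all genes were called, and DESeq2 gave no adjusted p for Chst11. No member had an unadjusted p under 0.05 in edgeR, DESeq2 or limma-voom. In edgeR 13.5% of all genes did, and with only 8 members nothing is read from the difference. The lowest adjusted p among the members was that of Chst12, at 32.9 ± 3.5 CPM (SD, n = 6) at 8 weeks and 22.5 and 35.3 CPM in the 2 libraries of 7 weeks (log2 fold change 0.26, SE 0.16, edgeR adjusted p = 0.514). St3gal1 had 204 ± 18.7 CPM (n = 6) at 8 weeks and 225 and 228 CPM at 7 weeks (log2 fold change -0.13, SE 0.09, edgeR adjusted p = 0.574). Chst11 had a log2 fold change of -0.20 (SE 0.29, edgeR adjusted p = 0.833). The libraries of 7 weeks are also those of set 1, so age and set cannot be told apart.

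The other genes of these pathways were taken from 8 lists of 127 genes, written with earlier results of these libraries known. 75 of the 127 were tested and 37 had 0 counts in every library. 0 of the 75 passed in edgeR's test of genotype (0.032% of all genes did), and DESeq2 and limma-voom also called 0. 5 of the 75 had an unadjusted p under 0.05 in edgeR, where 3.21% of all genes did. The groups of 6 of the 75 did not overlap, against 2.9% of all genes. Both counts include low-count sialyltransferases (below), and nothing is read from them. The median log2 fold change over the 75 was -0.04, beside 0.00 over all genes tested.

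In chondroitin sulfate synthesis 14 of 19 genes were tested, with a median of -0.06. 12 of the 14 had a fold change below 0, the others being Chpf2 and Xylt2, which rounds to 0.00. All of these 12 but Chpf lay within 1 SE of 0, so nothing is read from their direction. Chpf, a factor that helps polymerise the chain, had 31.4 ± 3.26 CPM in Furin KO and 40.5 ± 3.18 CPM in WT (log2 fold change -0.37, SE 0.13, edgeR unadjusted p = 0.0101). Its groups did not overlap. Chpf was named because its p was the lowest of the list, and it did not pass after adjustment. Nothing is therefore read from its p or from the gap between its groups. Chpf2, its relative, had 75.8 ± 11.8 CPM in Furin KO and 67.3 ± 1.33 CPM in WT (log2 fold change 0.17). Xylt2, which attaches the first sugar to the core protein, was at 112 ± 6.62 CPM in Furin KO and 112 ± 4.63 CPM in WT. Chst3 and Chst7, which sulfate another position of the sugar, and Chst13, a relative of Chst11, had 0 counts in all 8 libraries. Chst14, which sulfates dermatan, stood at 2.26 CPM per kb in Furin KO and 2.35 CPM per kb in WT. Chst12 was thus the highest per length of Chst11, Chst12, Chst13 and Chst14 in every library.

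Of heparan sulfate genes 10 of 18 were tested, with a median of -0.05. Glce, the epimerase of that chain, had 10.9 ± 2.92 CPM in Furin KO and 15.8 ± 4.5 CPM in WT (log2 fold change -0.53, SE 0.23, edgeR unadjusted p = 0.0301). It was also named for the lowest p of its list and did not pass after adjustment, so nothing is read from that p. Extl2, a transferase that acts on the linker, had 10.7 ± 1.17 CPM in Furin KO and 7.83 ± 2.37 CPM in WT (log2 fold change 0.45). Of the 13 other Golgi sulfotransferases listed, 3 were tested, Chst10, Tpst1 and Tpst2. Gal3st2c, which was not on the list, had a mean of 8.08 CPM over all libraries (log2 fold change 0.06). The 2 tyrosine sulfotransferases differed in level, with Tpst2 at 69.6 CPM per kb in Furin KO and 73.1 in WT and Tpst1 at 2.20 CPM per kb in Furin KO and 2.60 in WT. Their log2 fold changes were -0.07 for Tpst2 and -0.23 for Tpst1.

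For the sulfate donor, 7 of 8 genes were tested and their log2 fold changes lay between -0.20 and 0.02. The lowest was that of the sulfate transporter Slc26a2 (38.1 ± 5.46 CPM in Furin KO and 43.8 ± 4.04 CPM in WT). Slc35b2, which carries the donor into the Golgi, had 28.3 ± 4.85 CPM in Furin KO and 30.5 ± 6.15 CPM in WT. Papss1, which makes the donor, had 29.3 ± 3.54 CPM in Furin KO and 29.2 ± 5.98 CPM in WT, and its relative Papss2 had 29 counts over all libraries.

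Among the 15 other sialyltransferases 7 were tested, 5 of them with a fold change below 0 and a median of -0.17. St6galnac4, which adds sialic acid to already sialylated O-glycans, had 37.3 ± 2.93 CPM in Furin KO and 30.0 ± 3.71 CPM in WT (log2 fold change 0.31, SE 0.13, edgeR unadjusted p = 0.0271). This gene, too, was named for the lowest p of its list and did not pass after adjustment, so nothing is read from that p. St8sia6 had 0.374 ± 0.402 CPM in Furin KO and 1.48 ± 0.342 CPM in WT, with 111 counts over all libraries. St3gal2 and St6galnac3, named after their values were seen, had 0.957 ± 0.685 and 0.891 ± 0.291 CPM in Furin KO, against 2.70 ± 0.521 and 1.95 ± 0.577 CPM in WT. These 3 genes are close to the filter on low counts, which a gene can pass through the higher group alone. No test of them is therefore given. They enter into the counts over the 75 genes above and into the 5 fold changes below 0. Nothing is read from those counts or from the median of the list. St3gal4, a relative of St3gal1 and St3gal6, stood at 11.4 CPM per kb in Furin KO and 10.5 in WT. St6gal2, St8sia2, St8sia3 and St8sia5 had 0 counts, so St6gal1, and St8sia1 with St8sia4, were the enzymes of their classes with the most counts.

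Of 13 genes that make, activate, move or remove sialic acid, 9 were tested, with a median log2 fold change of 0.01. Nans, a sialic acid synthase, had 50 ± 8.09 CPM in Furin KO and 60.4 ± 7.34 CPM in WT (log2 fold change -0.27), and Casd1, an acetyltransferase of sialic acid, had 54.0 ± 8.64 CPM in Furin KO and 47.8 ± 3.64 CPM in WT (log2 fold change 0.18). Of 24 genes listed with O-glycans 16 were tested, 9 with a fold change above 0 and 7 below, with a median of 0.01. Galnt7, which helps start O-glycans, had 62.3 ± 5.16 CPM in Furin KO and 54.2 ± 4.73 CPM in WT (log2 fold change 0.20). Fut8 is on this list although it fucosylates the core of N-glycans. It had 28.1 ± 2.91 CPM in Furin KO and 33.2 ± 4.08 CPM in WT (log2 fold change -0.24). C1galt1, which makes the core that St3gal1 caps, had 76.5 ± 10.6 CPM in Furin KO and 83.3 ± 2.22 CPM in WT.

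Of 17 glycoproteins and proteoglycans that carry these glycans 9 were tested, with a median log2 fold change of 0.06. Cd8a, the co-receptor, had 1752 ± 111 CPM in Furin KO and 1584 ± 180 CPM in WT (log2 fold change 0.15). Cd74, a chondroitin sulfate carrier, had 3.44 ± 0.930 CPM in Furin KO and 2.14 ± 0.435 CPM in WT (log2 fold change 0.68, SE 0.40). Srgn, the serglycin core protein, had 236 ± 27.0 CPM in Furin KO and 219 ± 26.0 CPM in WT.

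In the age comparison 0 of the 75 genes passed in edgeR (0.336% of all genes did), and 10 had an unadjusted p under 0.05, against 13.5% of all genes. DESeq2 called 3 of the 75, beside 3.06% of all genes, and limma-voom 1 of the 75, beside 0.912% of all genes, and nothing particular to the lists is read from these counts. The 3 genes are named after their values were seen. Cmah, which converts sialic acid to its glycolyl form, had 293 ± 26.6 CPM at 8 weeks (n = 6) and 368 and 401 CPM at 7 weeks (log2 fold change -0.41, SE 0.09, edgeR adjusted p = 0.0671, DESeq2 adjusted p = 0.00194, limma-voom adjusted p = 0.0345). Selplg, which encodes the selectin ligand PSGL-1, and Cd8b1 were higher at 8 weeks by DESeq2 (adjusted p = 0.0368 and 0.0259). Their edgeR log2 fold changes were 0.24 and 0.25 (edgeR adjusted p = 0.171 and 0.123).

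The genes whose profile over the 8 libraries lay closest to that of Chst11 were B430306N03Rik, Tbx21, Socs3 and Casp1, out of 10656 tested protein-coding genes. The measure was the root-mean-square difference of log2(CPM + 1), each gene centred on its own mean, which was 0.233, 0.240, 0.258 and 0.289 for the 4 genes and would be 0.644 for a gene of constant level. B430306N03Rik had 35.5 ± 8.30 CPM in Furin KO and 15.2 ± 1.19 CPM in WT. Tbx21, a transcription factor in the list of antigen-experienced CD8+ T cells above, had 6.73 ± 1.5 CPM in Furin KO and 2.02 ± 0.826 CPM in WT. Socs3 had 445 ± 70.0 CPM in Furin KO and 236 ± 8.30 CPM in WT. Casp1 had 3.93 ± 1.54 CPM in Furin KO and 1.32 ± 0.403 CPM in WT. Each of the 4 was highest in Furin KO replicate 2, as Chst11 was. Each also had every Furin KO library above every WT library, which held for 1.31% of all genes tested. Both traits belong to the profile by which the 4 were picked, so nothing is read from them. The likeness rests on the same libraries that set Chst11 apart and carries no test.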

How the data were processed

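RNA sequencing of naive CD8+ T cells gave 8 libraries, 5 labelled Furin KO and 3 labelled WT. The authors deposited raw whole-number counts per Ensembl gene. The build was GRCm38 and the software DESeq2 1.24.0, STAR, Trim Galore and FastQC, per the submitters' processing notes. Read counter, annotation and strandedness: not given in the sources used here, so genes that overlap or share sequence are uncertain. Symbols and lengths came from GENCODE M21, which matched 55480 of 55573 IDs.

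Counts were tested with edgeR 4.0.16 (R 4.3.3), with TMM factors, the filterByExpr filter and the quasi-likelihood test, two-sided, with Benjamini-Hochberg adjustment over 12500 genes. These held at least 99.9% of each library's counts. CPM used TMM-scaled library sizes, and total counts of 11308220 to 21040431 set the precision. DESeq2 1.42.0 and limma-voom (limma 3.58.1) were alternatives, beside other scalings, filters and covariates and each library left out. Library sets came from average-linkage clustering on the chi-square per degree of freedom between libraries, cut at a chosen number of 3 sets. This measure was 8.94 to 13.9 within and 14.2 to 31.9 between sets, ranges that nearly meet. No 2 libraries thus agreed within sampling noise. Fits were tested on simulated data. Members and lists were chosen with earlier results of these data known. Named pathway genes are the 2 of lowest genotype p in each list, and others were named for their role or values after these were seen. No sample was paired by its replicate number, which only follows accession order.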

Additional observations from a re-analysis of the deposited data

Results flagged for a closer look

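Chst11 in Furin KO replicate 2 stood at 17.3 CPM, against 9.10 to 11.2 CPM in the other 4 Furin KO libraries, a gap of 0.75 of the group's range (Dixon's limit for 5 samples is 0.71). 30 genes were checked in this way in the Furin KO group and 1 exceeded the limit, where chance gives about 1.5.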

How the results depend on the processing

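The count of genes past the threshold of genotype was 4 of 12500 in edgeR and 38 of 20027 without the filter on low counts. It was 15 of 12500 with DESeq2 and 12 of 12500 with the library set as a factor. The count of members past the threshold was 0 in edgeR and 1, Chst11, under each of those 3 alternatives. Nothing is read from it, since the genotype difference took part in the choice of members. Leaving out each library gave 3 to 5 genes and no member. No pathway gene passed under any of these or the other alternatives run. The log2 fold change of Chst11 was 1.19 to 1.61 with 1 library left out and 1.37 to 1.63 otherwise, and that of Furin 0.03 to 0.19 and 0.08 to 0.13. The age comparison called 42 of 12500 genes in edgeR, 278 of 20027 without the filter, 382 of 12500 with DESeq2 and 114 of 12500 with limma-voom. Leaving out 1 library gave 0 to 58, namely 0 without Furin KO replicate 1 or 2, 1 without WT replicate 1, 11 without WT replicate 3, 21 without Furin KO replicate 4 and 19 without replicate 5. Leaving out a library of 7 weeks leaves 1, assumed to vary like the others. No member passed in any of these. The age fold change of Chst11 was 0.13 without the genotype covariate and turned direction; with 1 library left out it was -0.63 to 0.15. Those of Chst12 (-0.01 to 0.51), St3gal6 (-0.15 to 0.06) and St8sia4 (-0.31 to 0.13) also turned, and the cause was not tested. No paired analysis was possible because no label pairs the samples and replicate numbers were given in accession order. The fit with the library set as a factor blocks on sets drawn from the counts, which are also runs of consecutive samples, and it changed the call of Chst11.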
